A study of Mus musculus with 18 samples.

Results

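RTP801 silencing in the WT hippocampus was examined by setting the small RNAs of 4 WT mice that received an shRNA against RTP801 (WT shRTP801, mice 4, 10, 17 and 21) against those of 5 WT mice that received a control shRNA (WT shCT, mice 3, 5, 6, 11 and 15), chosen by their labels as 9 of the 18 mice of the study. All were male B6SJL mice, injected bilaterally at 6 months of age in the CA1 and the dentate gyrus with rAAV2/8 carrying H1-shRTP801-RSV-GFP or H1-shControl-RSV-GFP, and the hippocampus was taken 4 weeks later. Both groups therefore received virus, surgery and GFP, and no uninjected mouse was among them. The virus was directed to neurons, but RNA came from the tissue as a whole, so transduced and untransduced cells were pooled, and in such bulk RNA fewer cells of a type and less RNA per cell cannot be told apart. The other 9 mice carried 5xFAD, a set of transgenes with human mutations that drives amyloid deposition, with shCT (n = 3) or shRTP801 (n = 6). They enter here through the shared estimate of the spread and through a test of whether the effect differed by genotype.

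RTP801, also named REDD1 and encoded by Ddit4, is a stress-induced protein known as an inhibitor of the kinase mTORC1. RNA polymerase III makes tRNAs as precursors with a 5′ leader and a 3′ trailer that are removed, and a minority of genes also hold an intron that an endonuclease cuts out before the tRNA ligase complex joins the exons. The study asked whether RTP801 acts on that complex. The mRNA of RTP801 was not analysed here, so the silencing itself could not be checked in these libraries.

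In Hydro-tRNA-seq, RNA of 60 to 100 nt is cut from a gel and broken by alkaline hydrolysis, which makes modified and folded tRNAs readable, so each read covers part of a molecule. The size range also lets in snoRNAs, 5S rRNA, mt-tRNAs and microRNA hairpins. WT shCT libraries held 19835809 to 33667874 reads and WT shRTP801 libraries 18163508 to 34488930, with every group of near-identical gene copies counted once. Only 47875 to 228426 of the reads of a WT library lay on precursors, and 4653 to 2046904 lay on snoRNAs. Levels are given as the percentage of the reads of the class (mature tRNA, precursor tRNA, mt-tRNA, snoRNA or other small RNA), and a fitted change is the difference between group means of log2(percentage + 0.001%), WT shRTP801 minus WT shCT. It understates the change of features near 0.001%.

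WT shCT mouse 5 and WT shRTP801 mouse 4 stood apart from the others before any comparison, with 98.7% and 98.0% of all reads on mature tRNA and only 4653 and 22412 snoRNA reads. One 5xFAD shRTP801 mouse, number 7, stood apart in the same way. Values without all 3 of them, a choice made after the data were seen, are given beside the main results and wherever a count moved with them. The miRNA genes that mark cell types gave little to check the tissue with. Of 18 listed neuronal miRNA genes, 8 were in the table, with a summed 0 to 70 reads per WT shCT mouse and 5 to 48 per WT shRTP801 mouse. Of 6 listed genes of oligodendrocytes, 2 were in the table, with 0 to 592 and 3 to 676 reads. The immune and vascular lists had 1 gene each in the table, at 0 to 4 reads, and the red cell list had none. The RNA integrity number was at least 8 in every mouse.

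No small RNA passed the test after adjustment. Among 2030 features tested, which include isodecoders (tRNAs that share an anticodon but differ in their body), their read types, pre-tRNA loci, mt-tRNAs, snoRNAs and other small RNAs, limma called 0 at an adjusted p under 0.05 (0.0%), and the lowest adjusted p was 0.608. At an unadjusted p under 0.05 there were 130 (6.4% of those tested), of which 111 (5.47%) were higher and 19 (0.936%) lower in WT shRTP801 mice. The same reads count in an isodecoder and in its read types, so these 130 are not separate RNAs. The count rested on single mice: it was 49 without WT shRTP801 mouse 17, 60 and 72 without WT shCT mice 3 and 11, 81 and 83 without WT shRTP801 mice 10 and 21, and 245 without WT shRTP801 mouse 4. The adjusted count was 2 without WT shCT mouse 15 and 0 without each of the other WT mice. Without the 3 libraries that stood apart, 244 features (12.0%) had an unadjusted p under 0.05 and 0 an adjusted one. The values below are therefore descriptions of 9 mice, and none is a called difference.

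The class shares came first, because every later percentage is taken within a class. Mature tRNA made up 69.6%, 98.7%, 74.9%, 82.4% and 31.9% of the reads of WT shCT mice 3, 5, 6, 11 and 15, and 98.0%, 46.9%, 41.6% and 34.1% of those of WT shRTP801 mice 4, 10, 17 and 21. Of the WT shRTP801 libraries, 3 of 4 thus held less mature tRNA than 4 of the 5 WT shCT libraries, and WT shCT mouse 15 held less than any WT shRTP801 mouse. WT shCT mice averaged 71.5% ± 24.7 (SD, n = 5) and WT shRTP801 mice 55.1% ± 29.1 (SD, n = 4), and p was 0.373 in a two-sided exact permutation test over all allocations of the 9 mice, for which the smallest possible p is 0.00794.

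Apart from precursors, the other classes filled the room in the same mice. The precursor share was highest in WT shCT mouse 5 (1.15%) and WT shRTP801 mouse 4 (0.989%). Reads on mt-tRNA, which the mitochondrion makes from its own genome, were 21.3%, 0.00315%, 14.9%, 13.1% and 34.0% of the total in WT shCT mice and 0.435%, 34.7%, 39.8% and 33.9% in WT shRTP801 mice (exact permutation p = 0.286). The snoRNA share, from RNAs that guide the modification of rRNA and snRNA, averaged 2.46% ± 2.05 (SD, n = 5) with shCT and 4.52% ± 2.98 (SD, n = 4) with shRTP801 (exact permutation p = 0.214). Precursors made up 0.488% ± 0.414 and 0.435% ± 0.369, and rRNA 4.40% ± 6.94 and 6.23% ± 6.93, with exact permutation p of 0.786 and 0.524. The level of rRNA depends on how gene copies are counted, because 5S rRNA genes that stayed separate may share reads. With 5S rRNA counted once, rRNA averaged 1.24% with shCT and 1.73% with shRTP801, and mature tRNA 73.0% and 57.1%. With every copy counted, rRNA averaged 22.6% and 32.0%. The exact permutation p for rRNA was then 0.548 and 0.563. Adjusted over the 6 classes, the exact p ran from 0.629 to 0.786. Without mice 4 and 5, the exact p of the 6 classes ran from 0.0571 for snoRNA to 0.8 for precursors, where 0.0286 is the smallest that 3 against 4 mice allow.

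**Figure D1:**
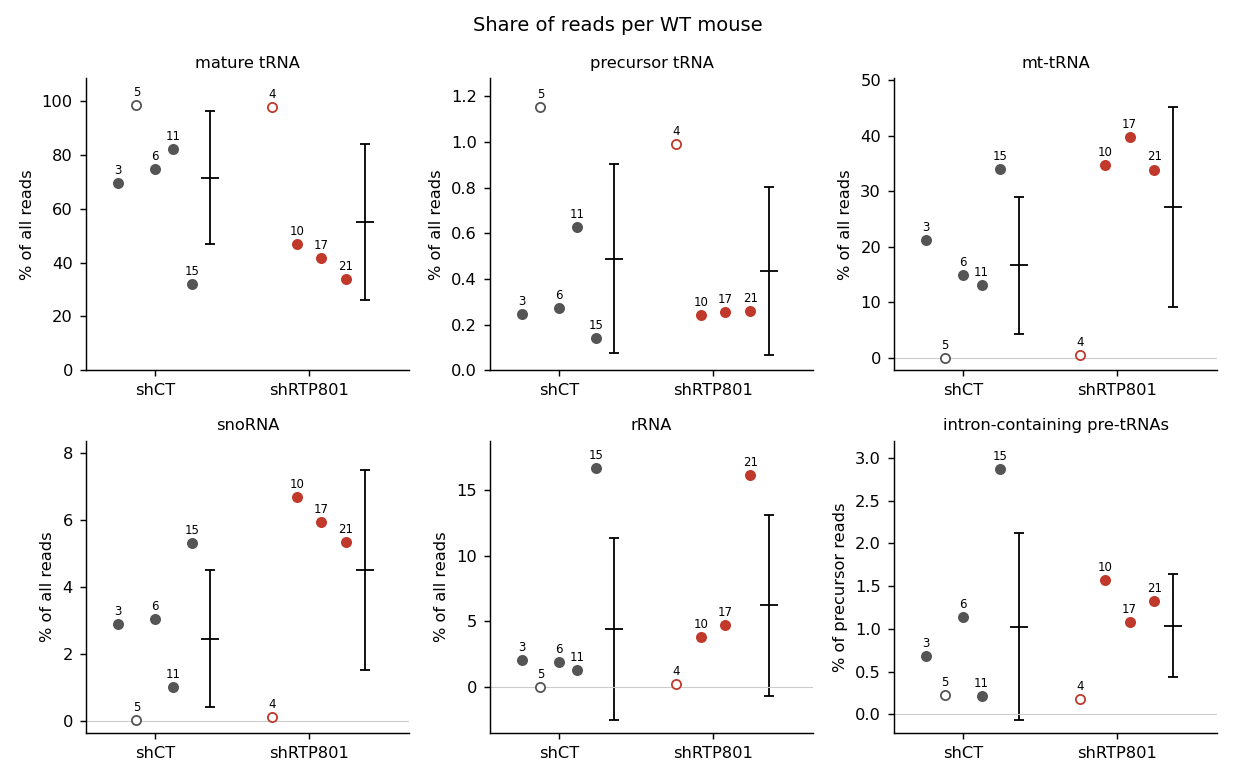
Share of all reads per WT mouse for 5 RNA classes, and the share of precursor reads on intron-containing pre-tRNAs (lower right), with points numbered by mouse, hollow points for the libraries that stood apart and a bar for mean ± SD (n = 5 and n = 4; an SD larger than its mean carries the bar below 0). Mature tRNA runs from 31.9% to 98.7% in WT shCT mice and from 34.1% to 98.0% in WT shRTP801 mice, so the groups overlap throughout.

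The intron-containing precursors, whose splicing the study tied to the ligase complex, had nearly equal means in both groups. Reads were counted by locus, and whether they covered the intron was not checked. They made up 0.687%, 0.232%, 1.14%, 0.214% and 2.87% of precursor reads in WT shCT mice and 0.181%, 1.57%, 1.08% and 1.33% in WT shRTP801 mice. On average this was 1.03% ± 1.10 (SD, n = 5) of the precursor reads with shCT and 1.04% ± 0.605 (SD, n = 4) with shRTP801 (exact permutation p = 1.0), and 95% Wilson intervals of single mice were narrow against this spread (2.72% to 3.02% for WT shCT mouse 15). On the log2 scale the ratio of means was 0.02, and it ran from -0.25 without WT shRTP801 mouse 10 to 0.87 without WT shCT mouse 15, the control with the highest value. Of the 22 intron-containing loci listed by the study, 20 were in the table. Their fitted change was above 0 for 12 and below 0 for 8, with a median of 0.32, and 0 of the 20 had an unadjusted p under 0.05 (9.61% of all loci had one). With the 3 libraries that stood apart left out, 15 of the 20 were above 0, with a median of 0.81, and again 0 had an unadjusted p under 0.05.

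By gene family, pre-tRNA-Tyr-GTA, whose genes carry introns, was at 0.290% ± 0.271 (SD, n = 5) in WT shCT and 0.278% ± 0.119 (SD, n = 4) in WT shRTP801 mice. In 5xFAD mice the same family was at 0.935% ± 0.271 (SD, n = 3) with shCT and 0.260% ± 0.136 (SD, n = 6) with shRTP801. The treatment effects differed by 2.23 on the log2 scale (SE 0.86, unadjusted p = 0.0186, adjusted p = 0.339, limma interaction). The fitted change in WT mice was 0.19, and it ran from -0.39 to 0.64 over the other settings tried. The mean of the WT shCT mice held the 0.764% of mouse 15, against 0.113% to 0.248% in the other controls. WT shRTP801 mice ran from 0.119% to 0.384%. The difference from 5xFAD mice did not pass adjustment over 97 families.

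Aspartate tRNA showed the highest read numbers among the tRNAs with an unadjusted p under 0.05. Mature tRNA-Asp-GTC, the only aspartate family, made up 1.19%, 8.81%, 6.98%, 1.09% and 6.06% of mature tRNA reads in WT shCT mice and 7.12%, 15.5%, 20.9% and 15.1% in WT shRTP801 mice. WT shRTP801 mice 10, 17 and 21 lay above every control, while mouse 4, one of the libraries that stood apart, lay within the control range. The group means, 4.82% ± 3.51 (SD, n = 5) and 14.7% ± 5.68 (SD, n = 4), were 3.04-fold apart. The fitted change was 1.99 (SE 0.69, limma adjusted p = 0.439). Counting error was at most 0.452% of a value (from the Wilson interval to one side), far below the spread between mice. The exact permutation p was 0.0159, and 0.44 once adjusted over the families.

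Among 97 families, limma called 0 at an adjusted p under 0.05 (0.0%) and 8 at an unadjusted one (8.25%), 7 higher (7.22%) and 1 lower (1.03%) in WT shRTP801 mice, and the groups of 0 families (0.0%) were free of overlap. The split of higher against lower was 1 against 1 on the deposited scale, 6 against 2 in edgeR and 8 against 2 in DESeq2. The 8 became 3 without WT shCT mouse 3, without WT shCT mouse 11 or without WT shRTP801 mouse 17, 4 without WT shRTP801 mouse 21, and 12, 15, 16 and 23 without WT shCT mice 5, 6 and 15 and WT shRTP801 mouse 4. Without the 3 libraries that stood apart there were 21 (21.6%), again with 0 after adjustment, and the fitted change of tRNA-Asp-GTC was 2.64.

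The aspartate precursors followed the mature pool. The family pre-tRNA-Asp-GTC made up 3.41%, 10.7%, 22.8%, 2.19% and 16.6% of precursor reads in WT shCT mice and 9.38%, 32.6%, 37.5% and 33.0% in WT shRTP801 mice. Mice 10, 17 and 21 again exceeded every control, and mouse 4 did not. The fitted change was 1.66 (SE 0.65, limma adjusted p = 0.439), with an exact permutation p of 0.0556, and it was 2.23 without the 3 libraries that stood apart. All 16 tested Asp loci had a fitted change above 0, with a median of 1.66, where 150 of all 333 loci were above 0 with a median of -0.06, and 13 of the 16 had an unadjusted p under 0.05 (9.61% of all loci). The 16 loci share sequence and their reads may be shared, so they are not 16 separate observations.

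The 4 aspartate isodecoders showed how the family was made up. tRNA-Asp-GTC-1 held most of its reads, with 0.945%, 7.98%, 5.67%, 0.891% and 4.94% in WT shCT mice against 6.15%, 12.2%, 17.9% and 12.7%. tRNA-Asp-GTC-2 was at 0.225%, 0.783%, 1.20%, 0.181% and 1.04% against 0.922%, 3.02%, 2.74% and 2.15%. tRNA-Asp-GTC-4 ran from 0.0128% to 0.1003% in WT shCT mice and from 0.0446% to 0.319% in WT shRTP801 mice. In all of these, WT shCT mice 3 and 11 were lowest and WT shRTP801 mice 10, 17 and 21 highest. Fitted changes were 2.00, 1.94 and 2.20 with an adjusted p of 0.734 each in limma, and tRNA-Asp-GTC-3, at 0.000927% to 0.0120%, had 0.98.

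**Figure D2:**
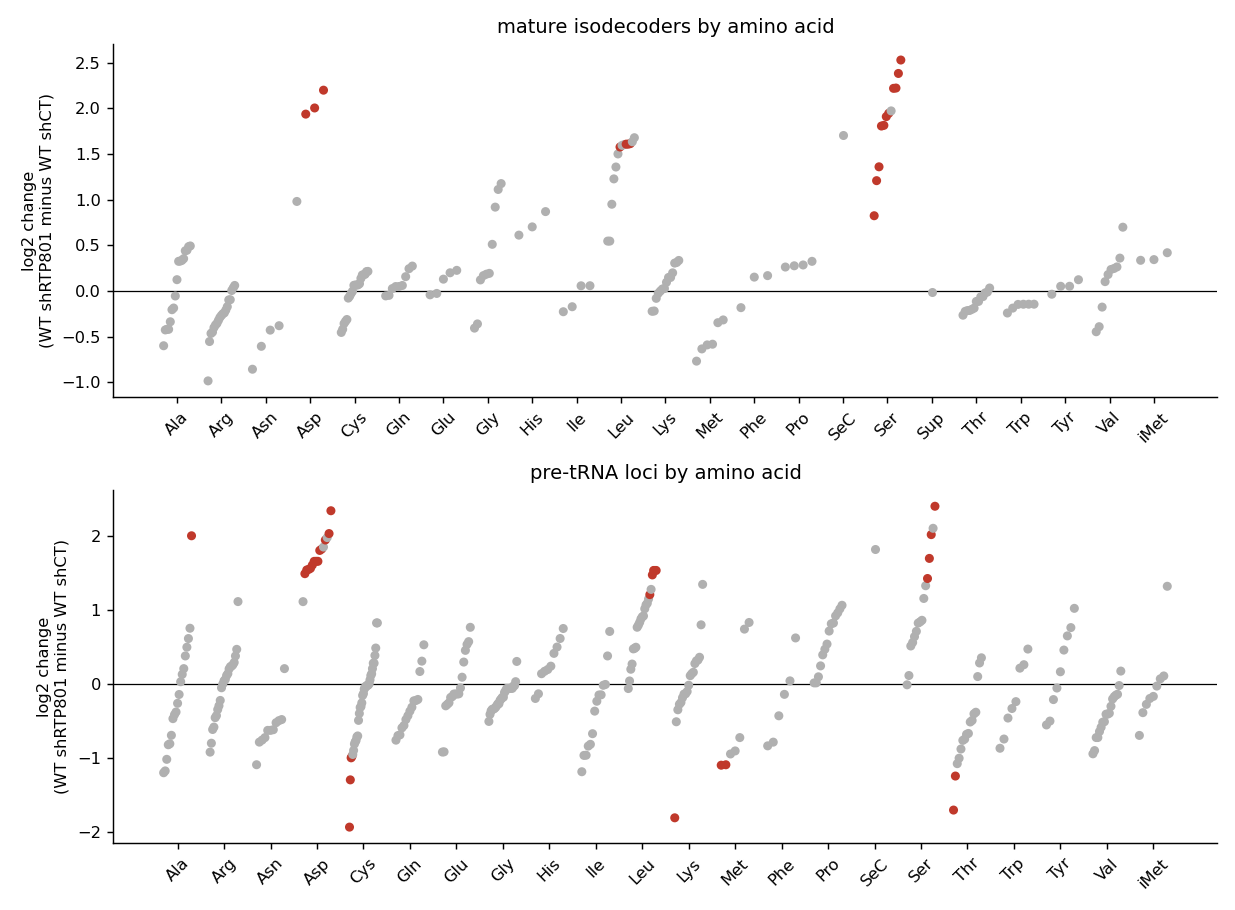
Fitted log2 change (WT shRTP801 minus WT shCT, log2 of percentage + 0.001%) of each mature isodecoder (top) and each pre-tRNA locus (bottom) by amino acid, with points in red where the unadjusted limma p is under 0.05 and grey otherwise; no point passes adjustment. The red isodecoders are 3 of Asp, 4 of Leu and 11 of Ser, and the 13 red Asp loci lie together above 1.

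Serine and leucine tRNAs were the other groups with such values. Of 186 mature isodecoders tested, 18 had an unadjusted p under 0.05 (9.68%), all of them higher in WT shRTP801 mice, and by amino acid these were 11 of the 12 Ser, 4 of the 14 Leu and 3 of the 4 Asp isodecoders. All 12 Ser, all 14 Leu and the single SeC isodecoder had a fitted change above 0, with medians of 1.93, 1.58 and 1.70, against 106 of 186 (57.0%) and a median of 0.06 over all isodecoders. Serine, leucine and selenocysteine tRNAs share a long variable arm, a feature named here after the values were seen and not tested. Without the 3 libraries that stood apart these medians were 2.03, 1.98 and 3.16, and 30 of the 186 isodecoders had an unadjusted p under 0.05, all higher.

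These tRNAs were scarce among the reads. Mature tRNA-Ser-AGA made up 0.00492%, 0.0159%, 0.0265%, 0.00279% and 0.0369% of mature tRNA reads in WT shCT mice and 0.0587%, 0.0336%, 0.197% and 0.0359% in WT shRTP801 mice. Only WT shRTP801 mice 4 and 17 exceeded every control, and mouse 17 lay far above the rest. The fitted change was 2.24 (SE 0.75, limma adjusted p = 0.439) and 2.36 without the 3 libraries that stood apart, and counting error reached 8.97% of a value.

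tRNA-Ser-CGA had the highest fitted change of the families, 2.51 (SE 0.91, limma adjusted p = 0.439). The value was 1.52 without WT shRTP801 mouse 17, 0.90 with a pseudocount of 0.1% and 2.73 without the 3 libraries that stood apart. The family made up 0.00617%, 0.0190%, 0.0305%, 0.00404% and 0.0345% of mature tRNA reads in WT shCT mice and 0.0676%, 0.0367%, 0.690% and 0.0306% in WT shRTP801 mice. WT shRTP801 mouse 17 lay about an order of magnitude above every other WT mouse, and mouse 21 lay inside the control range. DESeq2 on the recovered reads gave this family a log2 change of 3.41 with an adjusted p of 0.0117, its only call, while edgeR gave 3.45 with an adjusted p of 0.299.

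The remaining serine families ran alike. tRNA-Ser-GCT was at 0.0143% to 0.306% in WT shCT and 0.161% to 0.648% in WT shRTP801 mice, with a fitted change of 1.94. tRNA-Ser-TGA was at 0.00344% to 0.0559% and 0.0395% to 0.275%, with a fitted change of 2.11. Leaving out the 3 libraries gave 2.02 and 2.56. Both overlapped between groups, and in both the lowest values were those of WT shCT mice 3 and 11 and the highest that of WT shRTP801 mouse 17. The isodecoders tRNA-Ser-AGA-1 and tRNA-Ser-TGA-2 held reads that differed by only 1.01% in sum, so their reads cannot be assigned to one of them, and their fitted changes, both 2.22, are one observation.

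Among the leucine families, tRNA-Leu-TAG had an unadjusted p under 0.05. It made up 0.0128%, 0.145%, 0.142%, 0.0147% and 0.0474% of mature tRNA reads in WT shCT mice and 0.139%, 0.160%, 0.132% and 0.165% in WT shRTP801 mice. The WT shRTP801 mice lay close together and level with the highest controls, so that the fitted change of 1.68 (SE 0.76, limma adjusted p = 0.468) rested on the low values of WT shCT mice 3, 11 and 15. It was 2.13 with the 3 libraries left out. tRNA-SeC-TCA, which inserts selenocysteine, was at 0.0499%, 0.140%, 1.57%, 0.00783% and 0.543% in WT shCT mice and 0.0212%, 1.57%, 1.27% and 0.982% in WT shRTP801 mice. Its fitted change was 1.70 with an SE of 1.46 (limma adjusted p = 0.65), no larger than the spread between mice, and it ran from 0.71 without WT shCT mouse 11 to 3.16 without WT shRTP801 mouse 4.

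**Figure D3:**
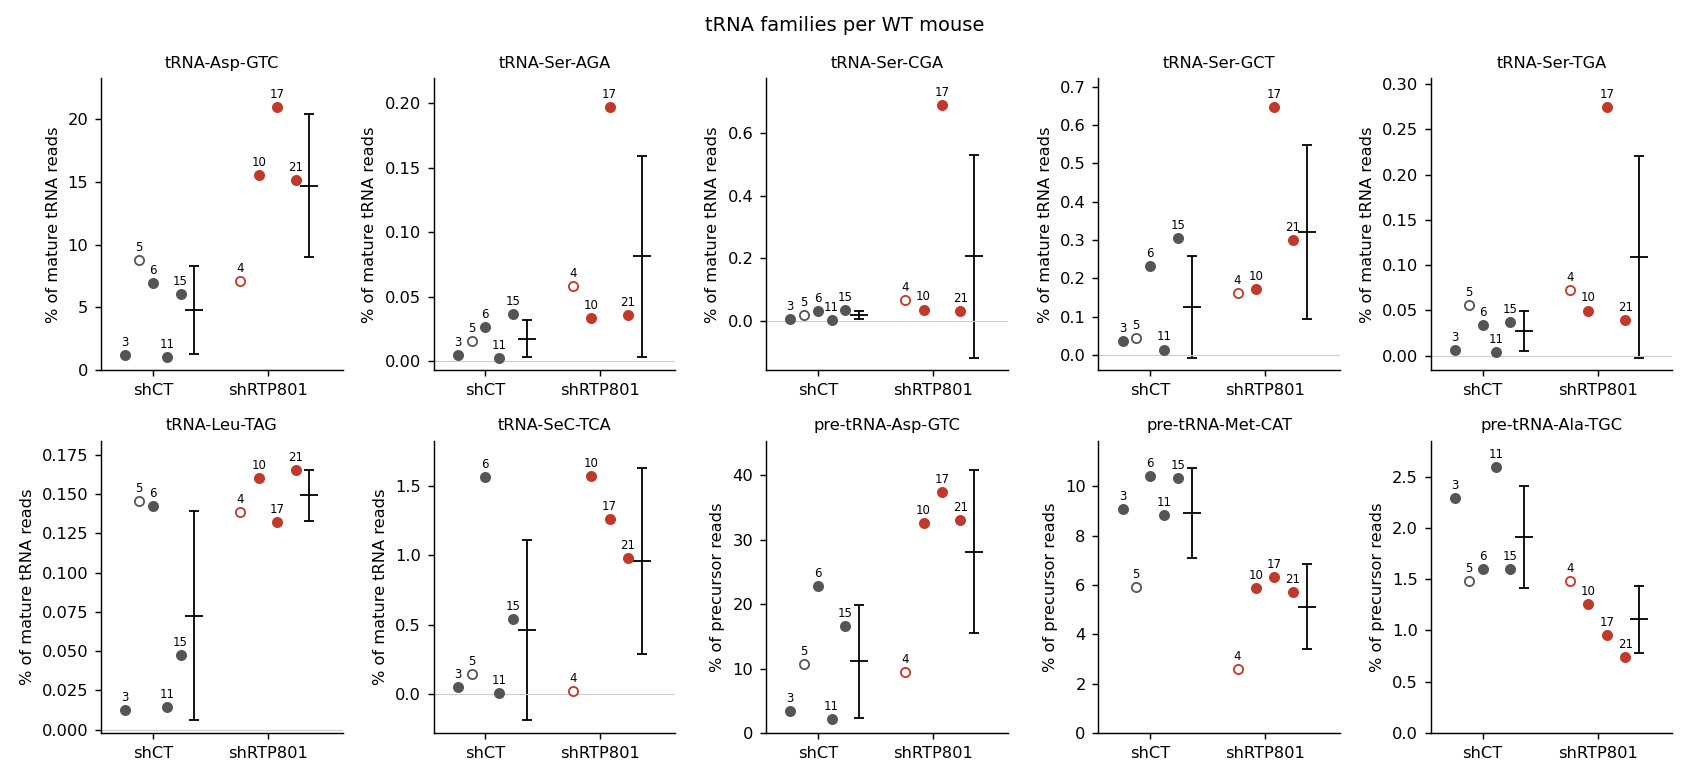
Percentage of mature tRNA or precursor reads per WT mouse for 10 anticodon families, each panel from its own axis, with points numbered by mouse, hollow points for the libraries that stood apart and a bar for mean ± SD (n = 5 and n = 4; some bars pass below 0). WT shCT mice 3 and 11 lie lowest for Asp-GTC (1.19% and 1.09%), and WT shRTP801 mouse 17 lies highest for Ser-CGA (0.690%).

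The makeup of the libraries differed along with these families in some of the mice. WT shCT mice 3 and 11, lowest in aspartate, serine and leucine tRNA, held 69.6% and 82.4% of their reads on mature tRNA, and WT shRTP801 mice 10, 17 and 21 held 34.1% to 46.9%. WT shCT mouse 15, at 31.9% mature tRNA, matched the latter in makeup and had 6.06% tRNA-Asp-GTC against their 15.1% to 20.9%. For tRNA-Ser-AGA (0.0369%) and tRNA-Ser-GCT (0.306%) it lay within the range of WT shRTP801 mice 10, 17 and 21, and for tRNA-Leu-TAG (0.0474%) below it. WT shCT mouse 5 and WT shRTP801 mouse 4, at 98.7% and 98.0% mature tRNA, did not follow this order throughout. They had 8.81% and 7.12% tRNA-Asp-GTC, 0.145% and 0.139% tRNA-Leu-TAG, and 0.0159% and 0.0587% tRNA-Ser-AGA. For tRNA-SeC-TCA they were at 0.140% and 0.0212%. Mouse 5 was the highest control for tRNA-Asp-GTC and tRNA-Leu-TAG. With the log2 mature tRNA share as a covariate, the fitted change was 1.82 for tRNA-Asp-GTC, 2.15 for tRNA-Ser-AGA, 2.52 for tRNA-Ser-CGA, 1.86 for tRNA-Leu-TAG and 0.67 for tRNA-SeC-TCA, with an adjusted p of 0.541 to 0.899 in limma. The part of library makeup in these values was not otherwise tested.

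Methionine and alanine precursors had the lower means in WT shRTP801 mice. Elongator pre-tRNA-Met-CAT made up 9.09%, 5.90%, 10.4%, 8.84% and 10.3% of precursor reads in WT shCT mice and 2.57%, 5.85%, 6.33% and 5.69% in WT shRTP801 mice. Mouse 17, with the highest value among WT shRTP801 mice, exceeded only WT shCT mouse 5. The fitted change was -0.86 (SE 0.41, limma adjusted p = 0.468), with an exact permutation p of 0.0238, and -0.70 without the 3 libraries that stood apart. The family pre-tRNA-Ala-TGC was at 2.29%, 1.48%, 1.60%, 2.59% and 1.60% against 1.49%, 1.26%, 0.956% and 0.742%, with a fitted change of -0.80 (SE 0.36, limma adjusted p = 0.468). Its groups overlapped only through WT shRTP801 mouse 4 and WT shCT mouse 5, and the fitted change was -1.04 without the 3 libraries.

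One methionine locus did not overlap between the groups. pre-tRNA-Met-CAT-1-1 made up 2.02%, 1.27%, 1.64%, 2.21% and 1.67% of precursor reads in WT shCT mice (800 to 2891 reads) and 0.611%, 0.905%, 0.682% and 1.15% in WT shRTP801 mice (460 to 1098 reads). Its fitted change was -1.09 (SE 0.39, limma adjusted p = 0.734, exact permutation p = 0.0159), and it was -1.07 without the 3 libraries that stood apart. The groups were free of overlap for 19 of the 2030 features (0.936%), 10 with WT shRTP801 above (0.493%) and 9 below (0.443%). In 5xFAD mice the fitted change of this locus was 0.39, and the difference between genotypes was -1.48 (SE 0.57, unadjusted p = 0.019, adjusted p = 0.514, limma interaction). The mature counterpart tRNA-Met-CAT-1 was at 4.55%, 1.95%, 3.64%, 3.97% and 2.88% against 1.04%, 1.99%, 2.68% and 3.53%, with a fitted change of -0.63 (adjusted p = 0.999).

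By amino acid, 5 of the 7 Met loci, 24 of the 35 Cys loci, 13 of the 16 Thr loci and 17 of the 18 Val loci had a fitted change below 0, against 183 of all 333. Other amino acids leaned the same way, with 24 of 26 Gly, 10 of 11 Asn, 12 of 14 Ile and 12 of 15 Gln loci below 0. Above 0 were all 16 Asp and all 14 Pro loci, 22 of 23 Leu and 15 of 16 Ser loci. These levels are percentages of precursor reads, so a higher share of some loci leaves less for the others. Asp loci averaged 11.1% of precursor reads in WT shCT mice and 28.1% in WT shRTP801 mice. How far this moved the other loci was not tested. The 9 loci lower at an unadjusted p under 0.05 (2.7%) were 4 of Cys, 2 of Met, 2 of Thr and 1 of Lys. With the 3 libraries that stood apart left out there were 26, of which 8 were of Cys, 4 of Val, 2 each of Met, Thr, Ala, Gln, Ile and Trp, and 1 each of Lys and iMet. The lowest p of the whole table, 0.000599, belonged to pre-tRNA-Cys-GCA-4-12, with 3, 5, 2, 6 and 1 reads in WT shCT mice and 1, 0, 0 and 0 in WT shRTP801 mice. The locus pre-tRNA-Ser-TGA-2-2, with the next lowest, had 0 to 8 reads, as did pre-tRNA-Ala-AGC-5-1. Such counts were too low for a firm level in any single mouse, and the fitted changes of these loci rest on the pseudocount.

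Between genotypes, the fitted changes of tRNA families mostly took opposite signs in the main fit, the only one in which signs were counted. The median difference of effects over the families, WT minus 5xFAD, depended on the setting. It was 0.18 in the main fit, 0.02 without the 3 libraries that stood apart and -0.83 on the deposited scale. The fitted change was above 0 in WT and below 0 in 5xFAD mice for 43 of the 97 families and the reverse for 32, whereas 4 were above 0 and 18 below 0 in both. The WT and 5xFAD comparisons share no mouse. In 5xFAD mice tRNA-Asp-GTC averaged 12.8% ± 2.72 (SD, n = 3) after shCT and 8.11% ± 4.44 (SD, n = 6) after shRTP801, a fitted change of -0.92. The difference of effects was 2.91 (SE 1.01, unadjusted p = 0.0105, adjusted p = 0.339, limma interaction). Of the families, 13 had an unadjusted interaction p under 0.05 (13.4%) and 0 an adjusted one. The 13 became 24 without the 3 libraries that stood apart, 28 without WT shRTP801 mouse 4 and 21 without WT shCT mouse 6. It was 4 with the log2 mature tRNA share as a covariate, 5 without WT shCT mouse 3 or 5xFAD shCT mouse 1, 6 without WT shCT mouse 11, WT shRTP801 mouse 17 or 5xFAD shRTP801 mouse 2, 7 without 5xFAD shRTP801 mouse 12 and 8 without 5xFAD shCT mouse 16.

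The mature tRNA share took opposite signs between genotypes as well, since 5xFAD mice averaged 43.9% ± 7.84 (SD, n = 3) after shCT but 71.8% ± 19.4 (SD, n = 6) after shRTP801. WT shCT mice, at 71.5%, and 5xFAD shRTP801 mice thus had the higher means, and its part in the opposite signs of the families was not tested.

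**Figure D4:**
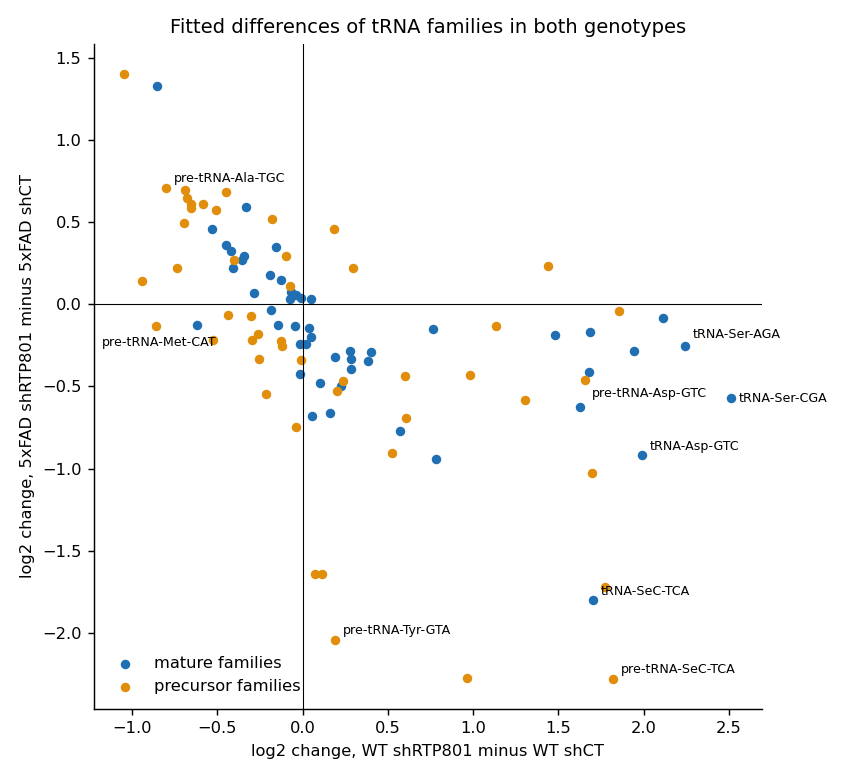
Fitted log2 change of each of the 97 anticodon families in WT mice (horizontal) and in 5xFAD mice (vertical), each shRTP801 minus shCT, with mature families in blue and precursor families in orange. Most families lie in the lower right (43) and upper left (32) of the plot, and tRNA-Asp-GTC sits at 1.99 and -0.92.

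Among snoRNAs, 223 of 274 had a fitted change above 0 (81.4%), with a median of 0.52, against 57.0% of all features. Without the 3 libraries that stood apart, 180 were above 0 with a median of 0.24. Box C/D snoRNAs, which guide ribose methylation, were above 0 in 70 of 76 cases with a median of 0.94, and box H/ACA snoRNAs, which guide pseudouridylation, in 28 of 36 with a median of 0.24. With those libraries left out these became 52 and 17, with medians of 0.34 and -0.03. Limma called 0 of them at an adjusted p under 0.05 and 8 at an unadjusted one (2.92%), all higher in WT shRTP801 mice, which became 20 higher and 3 lower with the 3 libraries left out.

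Snord14c and Snord14d, box C/D snoRNAs of the U14 family that lie within Hspa8, the gene of a constitutive heat shock protein, led the snoRNAs. U14 is known both for a guide function and for a part in the cleavage of the rRNA precursor. Snord14c made up 0.0273%, 0%, 0.118%, 0.0665% and 0.0951% of snoRNA reads in WT shCT mice and 0.259%, 0.351%, 0.537% and 0.425% in WT shRTP801 mice. Every WT shRTP801 mouse lay above every control, mouse 4 included, as in 4 of the 274 snoRNAs (1.46%). The 0 of WT shCT mouse 5 was 0 of 4653 snoRNA reads, which allows a share of up to 0.0645%, still below the WT shRTP801 mice. The means were 0.0613% ± 0.0481 (SD, n = 5) and 0.393% ± 0.118 (SD, n = 4).

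The fitted change of Snord14c was 3.70 (SE 1.05, limma adjusted p = 0.734), a value that depends on the pseudocount through the 0 of WT shCT mouse 5. It was 2.66 without the 3 libraries that stood apart. The exact permutation p was 0.00794, the smallest that 4 against 5 mice allow. Groups without overlap give a p at or near this limit, here and for the other features without overlap, so it restates the separation. In 5xFAD mice the fitted change was -0.43, and the interaction was 4.13 (SE 1.53, unadjusted p = 0.0154, adjusted p = 0.514). With the log2 mature tRNA share as a covariate the fitted change in WT mice was 3.10 (limma adjusted p = 0.996). WT shCT mouse 15, the control closest in makeup to WT shRTP801 mice 10, 17 and 21, had 0.0951% against their 0.351% to 0.537%. The part of library makeup in the Snord14c values was not otherwise tested.

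Snord14d had a fitted change of 3.54 (2.52 without the 3 libraries), but its reads differed from those of Snord14c by 5.39% in sum, so both may rest on many of the same reads. Snord14e, also within Hspa8, overlapped between the groups. It was at 0.00152%, 0%, 0.00372%, 0.00849% and 0.0130% in WT shCT mice and 0%, 0.00789%, 0.0442% and 0.0202% in WT shRTP801 mice, with a fitted change of 1.14 (adjusted p = 0.999). The 0% of WT shRTP801 mouse 4 was 0 of 22412 snoRNA reads, which allows a share of up to 0.0134%, and the fitted change was 2.23 without that mouse, 0.39 without WT shRTP801 mouse 17 and 1.69 with all 3 libraries that stood apart left out. Snord14a, within the ribosomal protein gene Rps13, was at 0.000762%, 0%, 0.000972%, 0.000943% and 0.000837% against 0.00446%, 0.00206%, 0.00420% and 0.00201%. Its groups do not overlap as listed, but the value of WT shRTP801 mouse 4 was 1 read, and the 0 of WT shCT mouse 5 allows more than any WT mouse had. All 4 Snord14 genes had a fitted change above 0, as did 81.4% of the snoRNAs tested. At an unadjusted p under 0.05 there were 3 of the 4 (2.92% of all snoRNAs). All 4 were past it once the 3 libraries were left out, with a median change of 2.11. Of all 274 snoRNAs, 20 were then past it as higher and 3 as lower. Snord14c and Snord14d may share reads and Snord14a had few, so the 4 are not separate observations. The family was described because members of it had low p in these same data, so its share past 0.05 partly restates that choice.

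Several other guide RNAs with a fitted change above 2 overlapped between groups. Snord35a, within Rpl13a, ran from 0% to 0.00726% and from 0% to 0.0900% (2.03, adjusted p = 0.835; 2.85 without the 3 libraries). Scarna2, a guide of the Cajal body, was at 0% to 0.0173% and 0.00446% to 0.0431% (2.16, adjusted p = 0.734), and Snord88a at 0% to 0.0641% and 0.0312% to 0.154% (2.60, adjusted p = 0.734). In all of them WT shRTP801 mouse 17 was highest or close to it, and WT shCT mouse 5 was at 0. Snord92, within Wdr43, had its highest value in a control, 0.695% in WT shCT mouse 6, and a fitted change of 2.25 (adjusted p = 0.734). Leaving out the 3 libraries gave 2.27 for Scarna2, 2.09 for Snord88a and 1.71 for Snord92.

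The snoRNAs with the most reads varied widely among the libraries of both groups, which overlapped. Snord80 ran from 0.129% to 30.9% of snoRNA reads in WT shCT and from 0.839% to 25.0% in WT shRTP801 mice, Snord73a from 0.150% to 10.6% and from 1.76% to 9.32%, and Snord104 from 0.0645% to 14.6% and from 4.82% to 12.2%. The lowest value of each was that of WT shCT mouse 5.

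**Figure D5:**
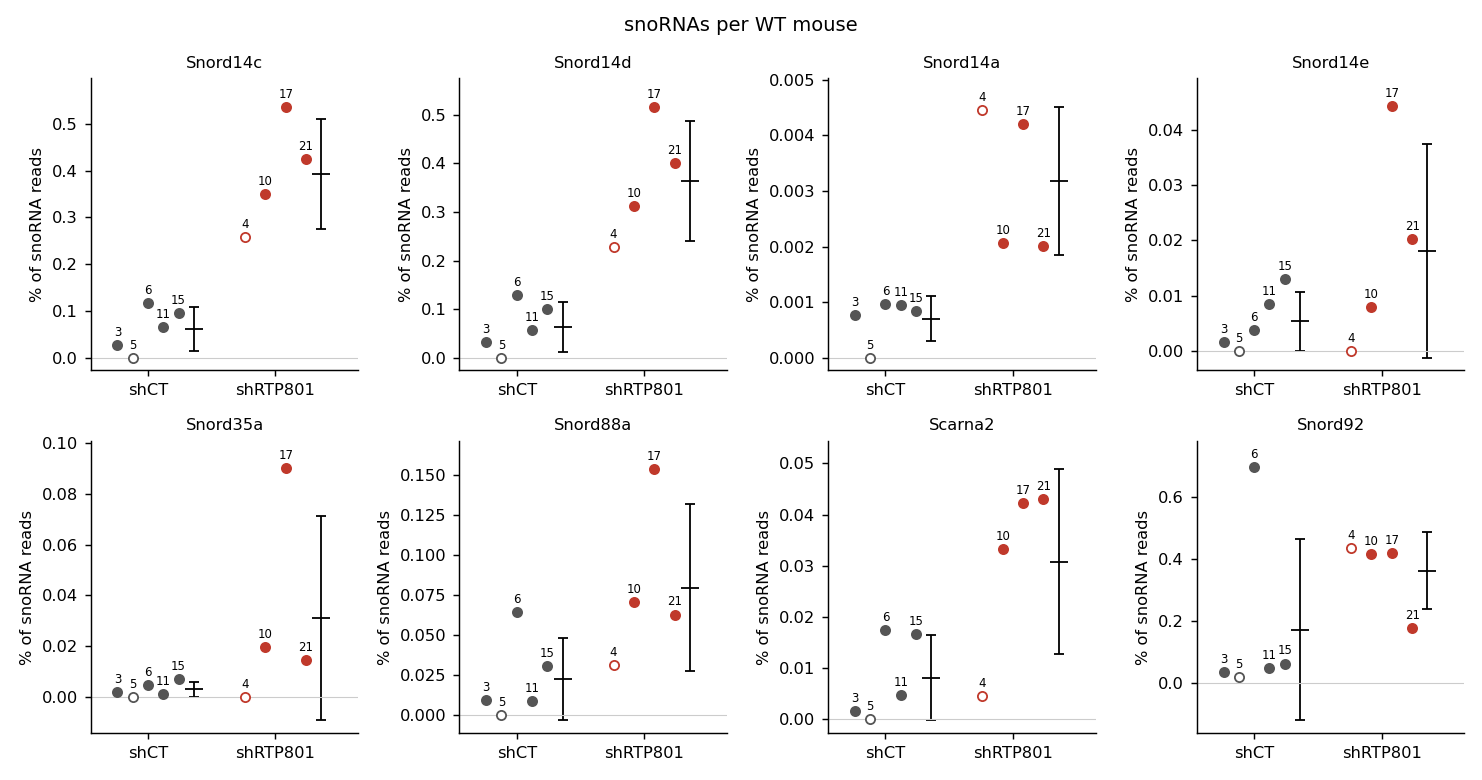
Percentage of snoRNA reads per WT mouse for 8 snoRNAs, each panel from its own axis, with points numbered by mouse, hollow points for the libraries that stood apart and a bar for mean ± SD (n = 5 and n = 4; some bars pass below 0). Snord14c and Snord14d separate the groups (Snord14c at most 0.118% in WT shCT and at least 0.259% in WT shRTP801 mice), whereas Snord14e and Snord92 overlap.

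The mitochondrial tRNAs were led by mt-Th, the histidine tRNA, at 39.3% to 60.0% of mt-tRNA reads in WT shCT mice and 43.6% to 61.0% in WT shRTP801 mice, and mt-Tv, the valine tRNA, at 11.7% to 22.1% and 15.98% to 32.9%. Of the 22 genes, 9 had a fitted change above 0 (40.9%) and 1 had an unadjusted p under 0.05 (4.55%). This was mt-Tr, the arginine tRNA, at 0.118%, 0.481%, 0.137%, 0.194% and 0.0558% in WT shCT mice and 0.109%, 0.0485%, 0.0469% and 0.0899% in WT shRTP801 mice. Its fitted change was -1.15 (SE 0.52, limma adjusted p = 0.762), it was -0.95 without the 3 libraries, and it turned to 0.57 on the deposited scale and 0.12 in DESeq2. The value of WT shCT mouse 5, the highest, was 3 reads. By strand, 8 of the 14 heavy-strand and 1 of the 8 light-strand genes were above 0, but WT shCT mouse 5 held only 624 mt-tRNA reads, and with the 3 libraries left out these counts were 3 and 3.

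The part of the tRNA that the reads covered was compared next, apart from abundance. The RNA was broken by hydrolysis before sequencing, so these read types cannot tell tRNA fragments of the tissue from whole molecules. Reads at the 3′ end made up 78.0% ± 11.5 (SD, n = 5) of mature tRNA reads in WT shCT mice and 71.6% ± 15.1 (SD, n = 4) in WT shRTP801 mice, and reads at the 5′ end 9.99% ± 5.36 and 12.8% ± 6.52. The exact permutation p was 0.476 and 0.452, and 0.524 after adjustment over the 4 read types. Within isodecoders, limma called 0 of 390 read types at an adjusted p under 0.05 (0.0%) and 5 at an unadjusted one (1.28%), 3 higher and 2 lower in WT shRTP801 mice. The 5 became 19 (9 higher and 10 lower) without the 3 libraries that stood apart, 18 (7 and 11) without WT shRTP801 mouse 4, 12 without WT shRTP801 mouse 21, 10 without WT shCT mouse 5 or 6 and 2 without WT shRTP801 mouse 17. The 5′ share of tRNA-SeC-TCA-1 ran from 0.456% to 1.12% of its reads in WT shCT and from 1.35% to 2.45% in WT shRTP801 mice, without overlap, as for 3 of the 390 (0.769%) (limma adjusted p = 0.994, exact permutation p = 0.00794). For tRNA-Gly-CCC-1, one of the most abundant tRNAs, it ran from 0.702% to 1.47% and from 1.01% to 3.96% (limma adjusted p = 0.994). The limma interaction with genotype for this read type had an unadjusted p of 0.00271. That p was picked from 390 read types without adjustment over them, so it is not a called difference.

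Among microRNA genes, whose hairpins fall in the size range of the gel, 14 of 38 had a fitted change above 0 (54.0% of all other small RNAs did) and 0 had an unadjusted p under 0.05 (1.3% of all other small RNAs had one). The median change was -0.11, and with the 3 libraries that stood apart left out, 3 of the 38 were above 0, with a median of -0.54 and again 0 past an unadjusted p of 0.05. The hairpins of 3 genes are shown to make plain what was counted, with mature arms in capitals, from RefSeq on build GRCm38.p6, where Mir29b-2 lies on chromosome 1, Mir1298 within Htr2c on chromosome X (both plus strand) and Mir219a-2 on chromosome 2 (minus strand). They are the hairpins of a brain-rich family, of a serotonin receptor intron and of an oligodendrocyte marker. Mir219a-2 overlaps the gene Mir219b, and whether reads of the 2 are shared was not tested. Only the arm mmu-miR-219a-5p was listed for Mir219a-2, so no other arm of it is in capitals.
Mir29b-2: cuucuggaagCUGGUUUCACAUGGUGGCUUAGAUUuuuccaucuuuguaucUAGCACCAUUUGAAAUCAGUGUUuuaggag
Mir1298: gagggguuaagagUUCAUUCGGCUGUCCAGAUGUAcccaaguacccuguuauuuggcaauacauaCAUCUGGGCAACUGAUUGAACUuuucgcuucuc
Mir219a-2: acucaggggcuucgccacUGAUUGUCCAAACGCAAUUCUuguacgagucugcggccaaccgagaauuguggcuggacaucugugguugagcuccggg

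Mir29b-2 had 819, 1, 916, 349 and 635 reads in WT shCT mice and 31, 911, 877 and 580 in WT shRTP801 mice. Mir1298 had 493, 1, 476, 814 and 770 against 58, 473, 419 and 194. Mir219a-2 had 461, 0, 591, 77 and 368 against 3, 676, 271 and 322. In all of these, WT shCT mouse 5 and WT shRTP801 mouse 4 had the fewest reads, and the groups overlapped. Their fitted changes were -0.13, -0.67 and -0.19 (adjusted p = 0.999 each in limma), and -0.88, -1.89 and -0.73 without the 3 libraries that stood apart.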

How the data were processed

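Hydro-tRNA-seq libraries, 1 per mouse, came from 18 mice in 4 labelled groups. The authors counted reads with tRAX (its version and the aligner are not given in the sources used here; the submitters' processing notes name build mm39) and divided each library by a size factor, so the deposited values are a normalized signal. Dividing each library by its smallest value above 0 gave whole reads for 100% of values (tolerance 0.001), and these reads were used. Near-identical copies (321, reads within 5%) were counted once. Of 102 rRNA genes outside the mitochondrial genome, 60 remained as separate counts.

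Levels were fitted in R 4.3.3 by limma 3.58.1, using log2(percentage of the class + 0.001%) where the mean reached 0.001%, over all 18 mice in 4 groups, with Benjamini-Hochberg adjustment over every feature tested and a threshold of 0.05. Anticodon families had a fit of their own. Read types were tested as log2 odds with 0.5 added to each count. For shares, the 9 WT mice were permuted exactly, two-sided (scipy 1.17.1). Other pseudocounts, other filters, the deposited scale, edgeR 4.0.16, DESeq2 1.42.0, RIN or mature tRNA share as covariates, the WT mice alone and leaving out each mouse were tried as alternatives. Mouse numbers are unique, so no pairing exists. The fit was tested on simulated data.

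Features named are those with the lowest p of each class, the tRNAs that the study names and the most abundant features. The members, lists and rules were chosen with earlier results of these data known. Snord14e, tRNA-Leu-TAG, the leading loci by amino acid and the 3 hairpins were chosen after their values were seen. Host genes and hairpins are from RefSeq, which matched 1209 of 1504 small RNA genes. Wilson intervals and the limit of 3 counts for a count of 0 cover counting error only. One item that is withheld is not reported here.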

Additional observations from a re-analysis of the deposited data

Results flagged for a closer look

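Of 72 groups of WT mice checked for a mouse far from the others of its group (Dixon's test), 12 had one, where chance gives about 5% of groups. In WT shRTP801 mouse 4, the precursor share was high (0.989% of all reads), the mt-tRNA share low (0.435%), and pre-tRNA-Met-CAT (2.57% of precursor reads) and pre-tRNA-Ile-AAT (1.02%) lay outside the range of the other 3 mice. This is the library with 98.0% of its reads on mature tRNA.

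WT shRTP801 mouse 17 was high in serine tRNAs, with 0.197% tRNA-Ser-AGA, 0.690% tRNA-Ser-CGA and 0.275% tRNA-Ser-TGA of mature tRNA reads and 0.189% pre-tRNA-Ser-CGA of precursor reads. Among WT shCT mice, mouse 15 was high in rRNA (16.7% of all reads), pre-tRNA-Arg-TCT (0.169% of precursor reads) and pre-tRNA-Tyr-GTA (0.764%), and mouse 5 stood apart in tRNA-Arg-TCT (0.352% of mature tRNA reads).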

How the results depend on the processing

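The count of features past an adjusted p of 0.05 was 0 under every alternative run on all features except 1: without WT shCT mouse 15 it was 2, so that leaving out each mouse gave 0 to 2, and the count of features whose effect differed by genotype also ran from 0 to 2. For families it was 1 under DESeq2 (tRNA-Ser-CGA, 3.41) and 0 otherwise. Without WT shCT mouse 15, pre-tRNA-Ser-TGA-2-2 reached 2.97 with an adjusted p of 0.0231. The 130 features and 8 families with an unadjusted p under 0.05 were 45 and 2 on the deposited scale, 65 and 6 in the WT mice alone, and 80 and 7 with the mature tRNA share as a covariate. The deposited scale moved the median change of families from -0.01 to -0.34 and that of all features from 0.10 to 0.23, and edgeR moved the latter to -0.07. No paired analysis was possible because the groups share no mouse number.

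Some changes took the other sign under other settings, among them mt-Tr (-1.15), mt-Tc (-0.95), mt-Tt (-0.57), mt-Tf (1.35) and pre-tRNA-Leu-CAA (0.96), none past adjustment, and the cause was not tested. On the deposited scale pre-tRNA-Arg-TCT was -0.070, pre-tRNA-Ile-TAT -0.012, tRNA-Tyr-GTA and tRNA-Ile-AAT -0.41 each, mt-Tr 0.57, mt-Tc 0.80 and mt-Tt 1.19. In edgeR pre-tRNA-Arg-TCT was -0.050, pre-tRNA-Ile-TAT -0.13, tRNA-Tyr-GTA -0.047 and pre-tRNA-Tyr-GTA -0.056, and in DESeq2 tRNA-Tyr-GTA was -0.11, mt-Tr 0.12 and mt-Tt 0.26. With the covariate, pre-tRNA-Arg-TCT was -0.90, pre-tRNA-Ile-TAT -0.89, pre-tRNA-Leu-CAA -0.30, tRNA-Tyr-GTA -0.00711, pre-tRNA-Tyr-GTA -0.39 and tRNA-Ile-AAT -0.12. tRNA-Tyr-GTA was also -0.00455 with a pseudocount of 0.1% and -0.070 without the 3 libraries that stood apart.

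Leaving out each mouse gave log2 ratios of -0.96 to 0.43 for the precursor share, -0.60 to 2.24 for the rRNA share, -0.25 to 0.87 for the intron-containing share and -0.034 to 0.66 for the share of other reads. It gave fitted changes of -0.39 to 0.91 for pre-tRNA-Arg-TCT, -0.36 to 0.98 for pre-tRNA-Ile-TAT, -0.12 to 0.27 for tRNA-Tyr-GTA, -0.050 to 0.64 for pre-tRNA-Tyr-GTA, -0.13 to 0.21 for tRNA-Ile-AAT and -0.18 to 1.85 for mt-Tf. Low counts limit the loci with under 10 reads, and 4653 and 22412 snoRNA reads limit WT shCT mouse 5 and WT shRTP801 mouse 4.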

Other observations

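Glycine tRNAs, among the most abundant, made up 13.96% to 44.6% of mature tRNA reads in WT shCT mice and 23.3% to 37.7% in WT shRTP801 mice (exact permutation p = 0.54). Of these, tRNA-Gly-CCC was at 34.7%, 13.1%, 38.3%, 30.4% and 27.6% in WT shCT mice 3, 5, 6, 11 and 15 and 24.8%, 22.9%, 14.4% and 24.5% in WT shRTP801 mice 4, 10, 17 and 21, with a fitted change of -0.36 (limma adjusted p = 0.681). Its groups overlapped through WT shCT mouse 5 and were free of overlap without mice 4 and 5 (exact permutation p = 0.0286, the smallest that 3 against 4 mice allow). Asparagine tRNAs made up 42.7% in WT shCT mouse 5 and 31.8% in WT shRTP801 mouse 4, the libraries richest in mature tRNA, against 1.77% to 13.9% in the other WT shCT mice and 1.44% to 2.37% in the other WT shRTP801 mice. Among proline precursors, 14 of 14 loci had a fitted change above 0 with a median of 0.63, and 0 had an unadjusted p under 0.05. Without the 3 libraries that stood apart, 11 of them were above 0.

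Gm23680, annotated as an snRNA gene, did not overlap between the groups as listed, at 0.000563%, 0%, 0.00195%, 0.00180% and 0.00214% of other small RNA reads in WT shCT mice and 0.00249% to 0.00846% in WT shRTP801 mice, with 0 to 206 and 2 to 364 reads. The 0% of WT shCT mouse 5 was 0 of 17698 reads, which allows a share of up to 0.0170%, above the value of every WT shRTP801 mouse, and WT shRTP801 mouse 4 had the 2 reads. Its fitted change was 1.25 (adjusted p = 0.734), and 1.15 without the 3 libraries that stood apart. The Y RNAs Rny1 and Rny3, which bind the Ro protein, had fitted changes of 1.29 and 0.93, each with an adjusted p of 0.999 in limma, and 0.51 and 0.53 without the 3 libraries.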
